A study of Homo sapiens with 12 samples.

Results

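The last steps of cholesterol synthesis turn lanosterol-derived sterols into cholesterol, and 6 genes that encode enzymes of these steps, MSMO1, NSDHL, HSD17B7, EBP, SC5D and DHCR7, were followed through chromatin immunoprecipitation sequencing (ChIP-seq) of HCC70 cells, an established triple-negative breast cancer line. The genes were chosen by name from 20090 protein-coding genes on chromosomes 1 to 22 and X of hg19, with earlier results of these data known. The rule for their peaks uses annotation alone. For each gene, every peak that overlapped the promoter (1000 bp before to 100 bp after a transcript start, each start in the annotation being used), and every peak within 10 kb of the gene was collected. HCC70 cells received vehicle or XY018, an antagonist of the nuclear receptor RORγ, for 24 h, and the libraries were prepared with antibodies against SREBP2, against RORγ and against acetylated lysine 27 of histone H3 (H3K27ac), a modification found at active promoters and enhancers. The dose of XY018 was 5 µM in the labels, while the methods of the study name a lower one. The 12 samples were 6 immunoprecipitated libraries, 1 for each antibody and treatment, and 6 input libraries that were not analysed here. Each group therefore held 1 library, so that no difference between treatments has a replicate check and no p-value was computed. Intervals below are 95% intervals and cover counting error only.

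MSMO1, NSDHL and HSD17B7 encode the enzymes that remove the methyl groups at carbon 4 of the sterol ring, namely an oxidase, a decarboxylating dehydrogenase and a 3-keto reductase. EBP then shifts a double bond in the sterol nucleus, SC5D introduces another one, and DHCR7 reduces the double bond at carbon 7 of 7-dehydrocholesterol to give cholesterol. The genes are classical targets of SREBP2, a transcription factor that is released from the endoplasmic reticulum when cell sterol is low and that acts at promoters together with the CCAAT-binding factor NF-Y and the GC-box factor SP1. RORγ binds DNA at half-sites of the AGGTCA type, and sterol intermediates of these late steps are known as ligands of the receptor. The comparison of vehicle with XY018 asked whether RORγ inhibition alters SREBP2 occupancy and H3K27ac at such genes.

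The promoters themselves are shown first, because all 6 carry the CCAAT box of NF-Y near the start and because SREBP2 peaks lie on or beside these stretches in 5 of the genes. Each line gives the 200 bases that end just before the most upstream transcript start of the promoter, from 5′ to 3′ on the strand of the gene. Capitals mark CCAAT on either strand (ATTGG on the other strand) and the E-box CACGTG. In hg19 the stretches are chr4:166248619-166248818 for MSMO1 (plus strand), chrX:151999311-151999510 for NSDHL (plus), chr1:162760292-162760491 for HSD17B7 (plus), chrX:48379987-48380186 for EBP (plus), chr11:121163190-121163389 for SC5D (plus) and chr11:71159482-71159681 for DHCR7 (minus).
MSMO1: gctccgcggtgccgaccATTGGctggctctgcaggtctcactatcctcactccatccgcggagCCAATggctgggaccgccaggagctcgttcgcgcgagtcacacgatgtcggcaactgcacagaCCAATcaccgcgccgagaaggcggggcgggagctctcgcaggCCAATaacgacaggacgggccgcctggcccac
NSDHL: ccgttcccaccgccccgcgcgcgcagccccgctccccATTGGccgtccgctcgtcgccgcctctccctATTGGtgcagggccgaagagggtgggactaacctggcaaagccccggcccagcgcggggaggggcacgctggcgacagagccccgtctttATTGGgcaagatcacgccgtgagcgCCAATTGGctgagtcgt
HSD17B7: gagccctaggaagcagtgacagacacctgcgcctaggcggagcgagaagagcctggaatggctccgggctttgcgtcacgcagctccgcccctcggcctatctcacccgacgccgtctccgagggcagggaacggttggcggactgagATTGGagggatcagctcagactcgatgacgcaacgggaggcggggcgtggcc
EBP: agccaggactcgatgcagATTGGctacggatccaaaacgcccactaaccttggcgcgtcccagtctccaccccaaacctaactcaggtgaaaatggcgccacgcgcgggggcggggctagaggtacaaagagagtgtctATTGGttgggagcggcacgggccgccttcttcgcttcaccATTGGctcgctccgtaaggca
SC5D: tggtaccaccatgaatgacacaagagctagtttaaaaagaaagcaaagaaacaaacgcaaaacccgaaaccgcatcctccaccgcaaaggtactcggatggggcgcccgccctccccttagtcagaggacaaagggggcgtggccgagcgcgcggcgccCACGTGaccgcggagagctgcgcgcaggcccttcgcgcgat
DHCR7: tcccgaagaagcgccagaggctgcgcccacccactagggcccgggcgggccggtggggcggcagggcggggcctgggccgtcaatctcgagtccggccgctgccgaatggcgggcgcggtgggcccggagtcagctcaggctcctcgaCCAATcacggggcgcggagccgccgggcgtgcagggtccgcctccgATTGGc

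MSMO1 has 4 CCAAT boxes in this stretch, NSDHL has 5 of which a pair overlaps in the run CCAATTGG, EBP has 3, DHCR7 has 2 and HSD17B7 has 1. The SC5D stretch has none, since its nearest CCAAT box begins at -56 bp from the canonical start, downstream of the most upstream start. It holds the E-box instead, at -131 bp. In the 250 bases before the canonical start, a window chosen after the positions had been seen, a CCAAT box was found in 6 of 6 genes and in 34.2% of 19812 protein-coding promoters. At least 2 boxes were found in 4 of 6 genes (MSMO1, NSDHL, EBP and DHCR7) against 11.4% of promoters, and at least 3 in 3 of 6 (MSMO1, NSDHL and EBP) against 3.62%. From 1000 bp before to 100 bp after the start, the box was common everywhere, in 6 of 6 genes and in 73.5% of promoters.

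The sterol regulatory element TCACNCCAC, the classical site of SREBP factors, was found in none of the 6 genes from 1000 bp before to 100 bp after the start and in 6.11% of promoters. With 1 mismatch allowed, it was found in 4 of 6 genes and in 66.5% of promoters, with the matches nearest the start at -156 bp in MSMO1, -98 bp in HSD17B7, 13 bp in SC5D and -743 bp in DHCR7. The E-box was found in SC5D and DHCR7, 2 of 6, against 19.6% of promoters. The half-site AGGTCA was found in 3 of 6 (MSMO1, NSDHL and DHCR7) against 48.4%, and the RORE core in 0 of 6 against 2.31%. The SP box GGGCGG was found in 6 of 6 against 72.6%. Both strands were searched for each element, and a match describes the letters in the window and not a bound site.

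**Figure D1:**
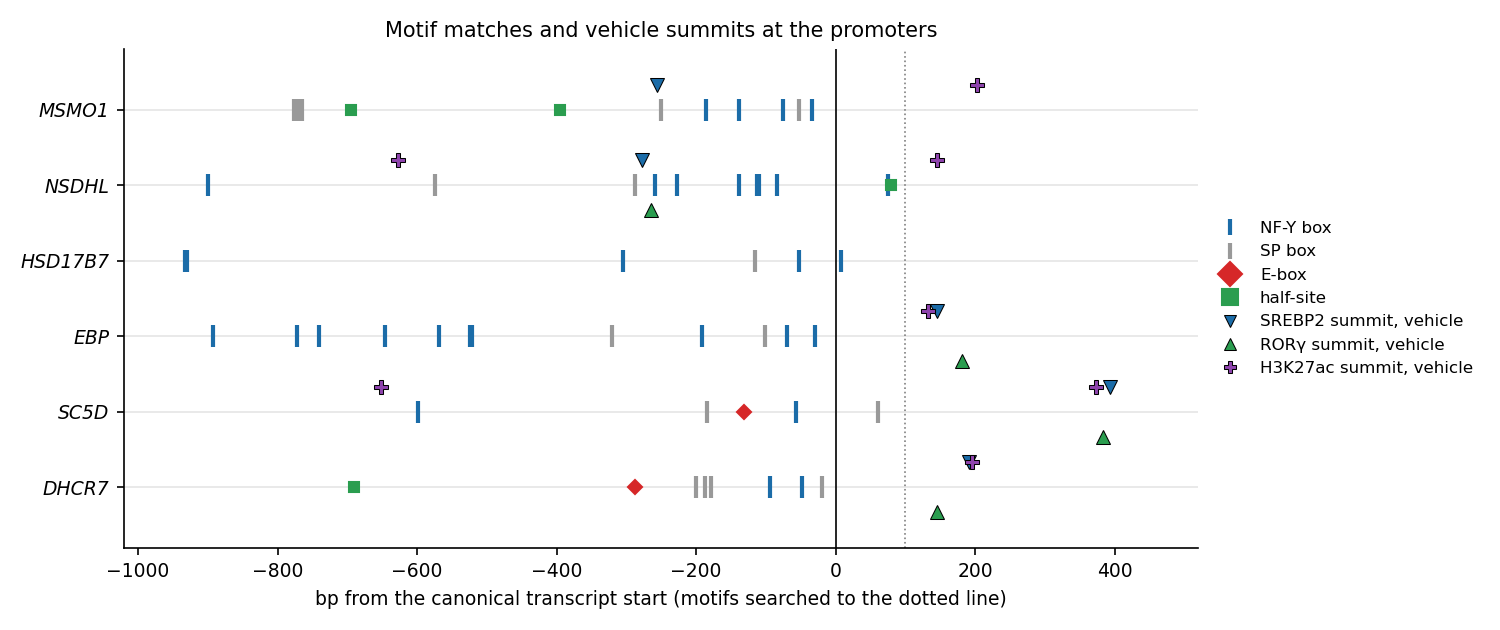
Motif matches and vehicle summits at the 6 promoters, by distance in bp from the canonical transcript start, with 1 row for each gene. Ticks are CCAAT (NF-Y) and GGGCGG (SP) boxes, diamonds E-boxes and squares half-sites, and the triangles and crosses above and below each row are the summits of SREBP2, RORγ and H3K27ac. CCAAT boxes gather in the 250 bp before the start in MSMO1 and NSDHL, and the SREBP2 summit lies upstream of the start in these 2 genes but downstream of it in EBP, SC5D and DHCR7.

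An SREBP2 promoter peak was called at 5 of the 6 genes in both treatments, and HSD17B7 was the exception. At q of at most 0.01 the count with XY018 was 4, without MSMO1. The shares that follow use every listed peak, weak ones included. A promoter peak of SREBP2 was called at 70.6% of all protein-coding genes with vehicle and at 62.7% with XY018, so that the count for the late sterol genes lay close to the background. RORγ had promoter peaks at 3 of 6 genes in both treatments, NSDHL, EBP and DHCR7, against 62.7% of genes with vehicle and 61.5% with XY018. H3K27ac was called at 5 of 6 in both treatments, again without HSD17B7, against 66.8% and 68% of genes. Of 14 genes of the earlier pathway, from ACAT2 to CYP51A1 together with TM7SF2 and LBR, 12 had an SREBP2 peak with vehicle and 11 with XY018. RORγ peaks were found at 12 and 9 of them, and H3K27ac peaks at all 14 in both.

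Background differed between libraries. The genome-wide background, the number of fragments expected over a typical base, was 1.03 in the vehicle library of SREBP2 and 1.21 in its XY018 library. It rises with depth and with fragment length. In this pair the tags per kb were 5.56 and 5.92, and the fragment length, taken from the smallest peak, was 185 bp and 205 bp. The RORγ pair had 0.79 and 0.71, and the H3K27ac pair 1.17 and 1.07. Summit fragments, the number of fragments piled up at the highest base of a peak, were therefore divided by this background before treatments were compared. With vehicle, H3K27ac promoter peaks were called at 4 of 6 basal markers (KRT5, KRT17, TP63 and EGFR), but also at 3 of 4 luminal markers (ESR1, GATA3 and FOXA1), and at VIM and COL1A1 but not PTPRC among 3 markers of other cell types. Over all protein-coding genes, 66.8% had an H3K27ac promoter peak with vehicle, so that these counts do not single out a cell type. In the XY018 library TP63 had no such peak, and the other markers were called as with vehicle.

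With vehicle, SC5D held the most SREBP2 fragments of the 6 promoters, with 31 at the summit (21.1 to 44), followed by DHCR7 with 28 (18.6 to 40.5), NSDHL with 19 (11.4 to 29.7), EBP with 18 (10.7 to 28.4) and MSMO1 with 11 (5.49 to 19.7). Neighbours in this order could not be told apart by counting error, whereas the intervals of SC5D and MSMO1 did not overlap. The median over all 14184 genes with an SREBP2 peak was 29 fragments, and MSMO1 stood above 8.09% of those genes, EBP above 20.5%, NSDHL above 22.9%, DHCR7 above 45.5% and SC5D above 52.9%.

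**Figure D2:**
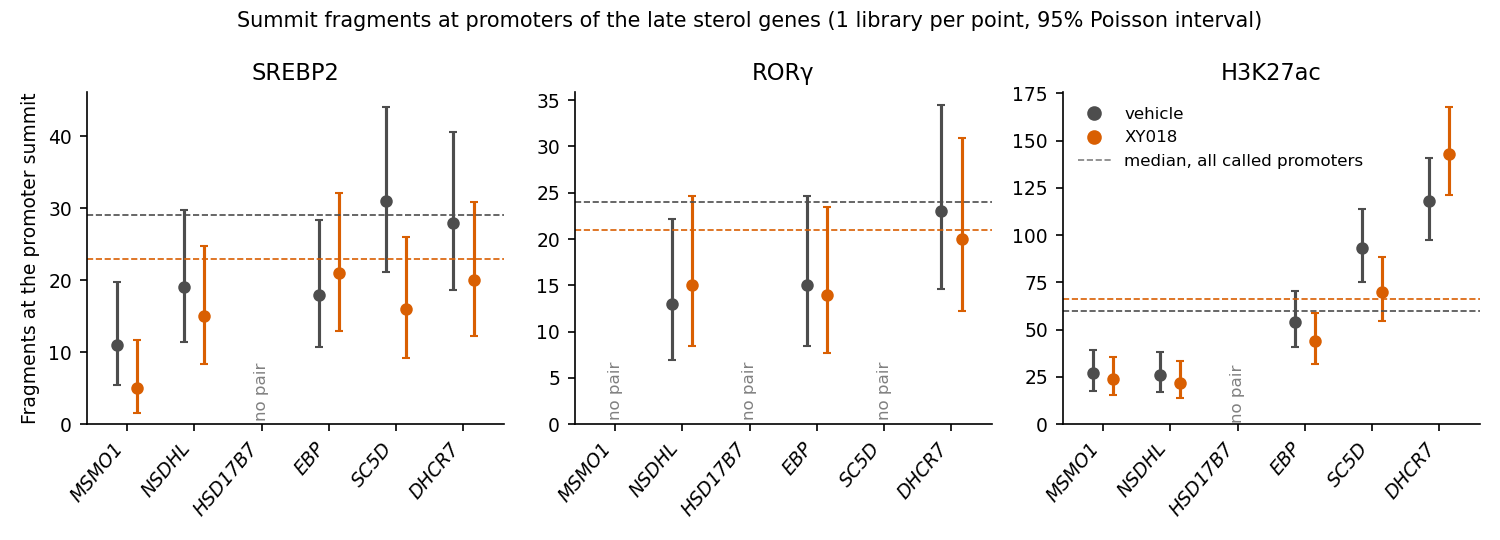
Fragments at the promoter summit of each gene with vehicle (grey) and XY018 (orange), for SREBP2, RORγ and H3K27ac; each point is 1 library and bars are exact Poisson 95% intervals. Dashed lines are the median over all promoters with a peak, 29 and 23 fragments in the SREBP2 panel, 24 and 21 in the RORγ panel and 60 and 66 in the H3K27ac panel, and genes marked as having no pair lacked overlapping promoter peaks in both libraries.

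With XY018, SC5D held 16 SREBP2 fragments in place of 31. Over background this was 13.2 against 30.2, a ratio of 0.437 (0.223 to 0.823), and SC5D was the one gene of the 5 whose interval lay below 1. DHCR7 went from 28 to 20 fragments, with a ratio of 0.605 (0.323 to 1.11), and NSDHL from 19 to 15, with a ratio of 0.668 (0.316 to 1.39). MSMO1 went from 11 to 5 fragments, with a ratio of 0.385 (0.105 to 1.2), which rests on the fewest fragments of the 5. The other XY018 peak at this promoter held 8 fragments, and with the strongest peak of each library the ratio of MSMO1 was 0.616, while it was 0.683 in deposited folds. EBP had 18 and 21 fragments, a ratio of 0.987 (0.501 to 1.97) that became 1.17 without scaling and 1.09 when scaled by tags per kb, so that no direction held for it.

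The ratio over background was below 1 in 5 of 5 genes, or in 4 of 5 under either other scaling, but the same was true of 98% of the 12336 genes with an SREBP2 promoter peak in both libraries, and their median ratio was 0.621. Summed over the 5 genes, fragments went from 107 to 77 and the ratio was 0.609 (0.448 to 0.824), or 0.675 when scaled by tags per kb. Set against the median of all genes, the individual ratios were 0.62 in MSMO1, 0.704 in SC5D, 0.974 in DHCR7, 1.08 in NSDHL and 1.59 in EBP. Each of these had an interval that included 1, and a departure of any of the 5 from the shift of all promoters was not detectable at this depth. Over the 11 earlier pathway genes that could be paired, the median ratio was 0.597, all 11 were below 1, and single values ran from 0.455 to 0.846. Among promoters outside the pathway GAPDH had a ratio of 0.958 and ACTB one of 0.817. These 2 are not typical, since 97% of genes had a lower ratio than GAPDH and 89.5% a lower one than ACTB.

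**Figure D3:**
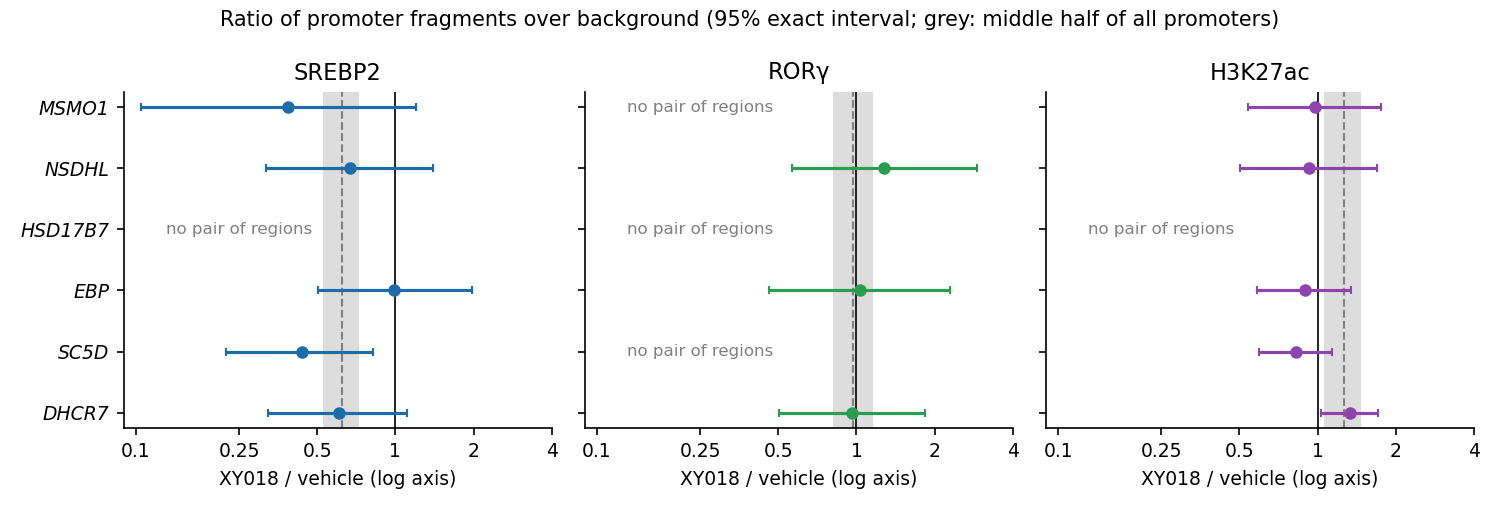
Ratio of XY018 to vehicle at each promoter, in summit fragments over the genome-wide background, on a log axis with exact 95% intervals. The black line marks 1, the dashed line the median of all promoters with peaks in both libraries (0.621 in the SREBP2 panel, 0.968 in the RORγ panel and 1.27 in the H3K27ac panel) and the grey band the range between their quartiles; for H3K27ac 4 of 5 genes lie to the left of the band and DHCR7 inside it.

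The fold enrichment deposited for each peak compares the summit with the background around it, and it moved differently at NSDHL. There the deposited fold went from 9.86 to 3.24, a ratio of 0.329, while the fragments went from 19 to 15. The local background under the peak was 1.03 fragments with vehicle and 3.94 with XY018. At EBP the fold went from 7.72 to 9.94 and at SC5D from 15.4 to 6.93, a ratio of 0.451 that lay close to that of the fragments. At MSMO1 the fold was 3.96 with vehicle and 2.71 with XY018, and the XY018 peak was weak, with a −log10 q of 0.738.

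Both MSMO1 and NSDHL had a further small SREBP2 peak at the start itself in the XY018 library. In MSMO1 it had its summit 20 bp downstream of the canonical start, in the untranslated first exon, with 8 fragments, and in NSDHL 51 bp downstream, also in the first exon, with 10. No vehicle peak overlapped either of them. Their −log10 q was 1 in MSMO1 and 2.92 in NSDHL. The share of all XY018 peaks without a vehicle counterpart was not computed, so that neither peak can be read as a gain particular to these genes. The shared peaks of these 2 genes lay upstream, with vehicle summits at -256 bp in MSMO1 and -278 bp in NSDHL. NSDHL has a neighbour there, since CETN2 starts on the opposite strand 306 bp before its canonical start, and the SREBP2 summit falls between the 2 starts. Peaks at this promoter belong to both genes alike.

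In EBP, SC5D and DHCR7 the SREBP2 summit lay inside the first intron instead, 146 bp, 393 bp and 192 bp after the canonical start with vehicle. The peaks of SC5D and EBP kept their position with XY018, with summits 81 bp and 11 bp away from those of vehicle. In DHCR7 the XY018 summit lay 164 bp nearer to the start, at 28 bp and in the first exon. Around the vehicle summit of SC5D, from chr11:121163833-121163913 on the plus strand of hg19, the sequence is shown because it is the strongest SREBP2 promoter peak of the group and the one whose ratio had an interval below 1, with GGGCGG in capitals.
SC5D first intron: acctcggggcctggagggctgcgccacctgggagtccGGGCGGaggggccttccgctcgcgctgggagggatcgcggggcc

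Within 100 bp of the vehicle summits, CCAAT was present in 2 of the 5 genes (MSMO1 and NSDHL), against 9.15% of 23201 SREBP2 promoter peaks. GGGCGG was present in 5 of 5 against 57.3%. The E-box, the half-site, the RORE core and the sterol regulatory element were each present in 0 of 5, against 5.4%, 7.88%, 0.121% and 0.974% of peaks. The GC content of these windows ran from 68.7% in NSDHL to 75.1% in EBP, and its median over all SREBP2 promoter peaks was 71.6%.

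RORγ occupied 3 of the 6 promoters, and its fragments were close to equal in the 2 treatments. DHCR7 had 23 fragments with vehicle (14.6 to 34.5) and 20 with XY018, a ratio over background of 0.962 (0.501 to 1.83). EBP had 15 and 14, with a ratio of 1.03 (0.462 to 2.29) that became 0.933 without scaling, and NSDHL had 13 and 15, with a ratio of 1.28 (0.566 to 2.91). The sum over the 3 genes went from 51 to 49 fragments, a ratio of 1.06 (0.703 to 1.6), while the median over all 11308 genes paired for RORγ was 0.968 and 55.3% of them were below 1. Of the 3 genes, DHCR7 alone was below 1 over background, and its ratio was 1.07 in deposited folds. A difference in either direction was not detectable at this depth. The median SREBP2 ratio of 0.621 lay inside the interval of each single gene and outside that of the sum.

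SC5D lacked a RORγ promoter peak only because of the window. A RORγ peak lay in its first intron with summits 383 bp and 378 bp after the start, at the place of the SREBP2 peak, and it held 12 fragments with vehicle and 9 with XY018, a ratio of 0.829 (0.309 to 2.14). With a promoter from 5 kb upstream to 1 kb downstream of any start, SC5D was counted for RORγ in both libraries. MSMO1 had a single RORγ peak within 10 kb, in the first intron 2016 bp after the start, with 5 fragments with vehicle and no peak with XY018. HSD17B7 had none near its start in either.

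Where both factors were present, their vehicle summits lay 13 bp apart in NSDHL, 36 bp in EBP and 46 bp in DHCR7, while the median distance over 12105 genes with both peaks was 71 bp. With XY018 they lay 13 bp apart in NSDHL, 11 bp in EBP and 166 bp in DHCR7, with a median of 66 bp. The H3K27ac summit lay 4 bp from that of SREBP2 in DHCR7 with vehicle and 158 bp with XY018, 14 bp and 17 bp in EBP, and 20 bp and 74 bp in SC5D. In MSMO1 and NSDHL, the genes with upstream SREBP2 summits, it lay 459 bp and 424 bp away with vehicle and 438 bp and 393 bp away with XY018, on the other side of the start in the first intron. The median over all genes was 73 bp with vehicle and 72 bp with XY018.

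H3K27ac was carried by the same 5 promoters as SREBP2, and its levels spread more widely. With vehicle the strongest peak held 118 fragments in DHCR7 (97.7 to 141), 93 in SC5D (75.1 to 114), 54 in EBP (40.6 to 70.5), 27 in MSMO1 (17.8 to 39.3) and 26 in NSDHL (17 to 38.1). The intervals of DHCR7 and SC5D overlapped, as did those of MSMO1 and NSDHL, whereas EBP lay apart from both pairs. The median over all 13420 genes with an H3K27ac promoter peak was 60 fragments, above EBP and below SC5D.

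With XY018 the H3K27ac fragments were 143 in DHCR7, 70 in SC5D, 44 in EBP, 24 in MSMO1 and 22 in NSDHL. The ratio over background was 0.825 in SC5D (0.596 to 1.14), 0.893 in EBP (0.586 to 1.35), 0.927 in NSDHL (0.501 to 1.7), 0.974 in MSMO1 (0.538 to 1.75) and 1.33 in DHCR7 (1.03 to 1.71). By the pair with the most fragments, DHCR7 was thus the one gene that was higher with XY018, and its interval lay above 1 (its ratio was 1.21 without scaling and 1.53 in deposited folds). The other 4 were each below 1 with intervals that included it. Of the 12877 genes with H3K27ac promoter peaks in both libraries 19.6% were below 1, and their median ratio was 1.27.

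Relative to this median, H3K27ac was 0.648 in SC5D (0.468 to 0.893), 0.701 in EBP (0.46 to 1.06), 0.728 in NSDHL (0.393 to 1.34), 0.765 in MSMO1 (0.423 to 1.38) and 1.04 in DHCR7 (0.812 to 1.34). Only the interval of SC5D left out 1. By point values alone, 8.32% of genes had a ratio lower than SC5D, 12% lower than EBP, 14.4% lower than NSDHL and 17.4% lower than MSMO1, against 57.4% for DHCR7. The other H3K27ac promoter pair of NSDHL, on the CETN2 side, had a ratio of 1.53 (0.754 to 3.2), so that the direction at NSDHL depended on the pair. The median ratio was 0.927 over the 5 late genes and 1.27 over the 14 earlier pathway genes, of which 3 were below 1. Summed over the 5 genes, fragments went from 318 to 303 and the ratio was 1.04 (0.889 to 1.23). DHCR7 decided this sum, and without it the ratio was 0.877. GAPDH and ACTB had H3K27ac ratios of 1.18 and 1.23. The whole-list shift between the 2 H3K27ac libraries goes with treatment and cannot be told apart from it.

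HSD17B7 had no peak of any antibody at its promoter in either treatment, the one gene of the 6 without H3K27ac there. Part of this promoter has an identical copy beside the pseudogene HSD17B7P2, and the study kept only uniquely placed tags of 50 bases. Of the 1150 words of 50 bases that touch the window, 651 (56.6%) occur once in hg19, and from 200 bp before to 100 bp after the start 115 of 301 (38.2%) do. The repeated words have their copy on chromosome 10 between 38644235 and 38645402. In the other 5 genes all 1150 words were unique. No peak was called within 10 kb of HSD17B7P2 in any of the 6 lists. Tags could be placed at the HSD17B7 promoter only through the unique words, and the part of the copy in the missing peaks was not tested.

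**Figure D4:**
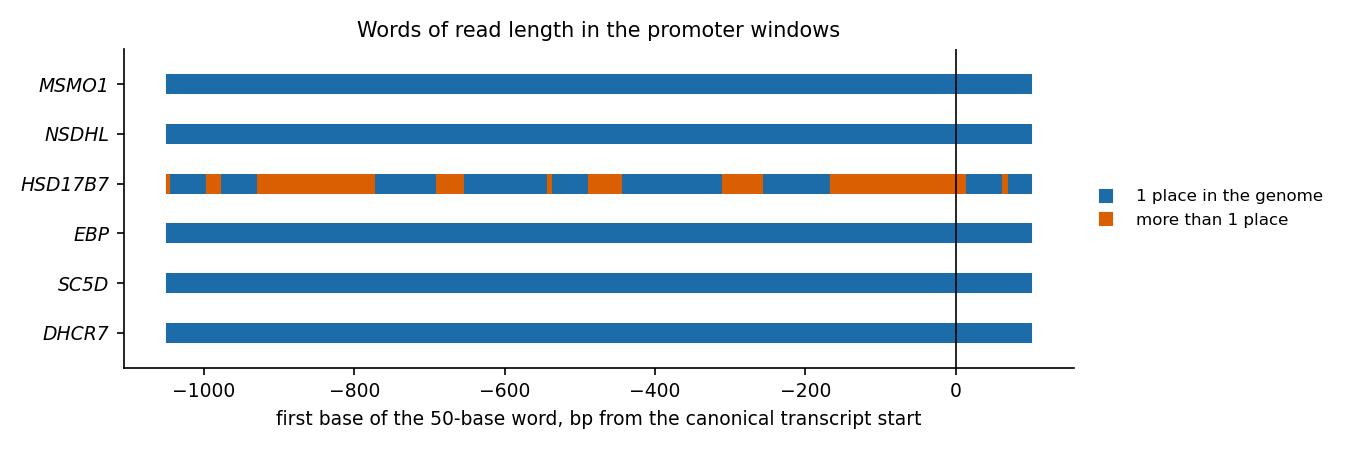
Words of 50 bases, the read length, in the promoter window of each gene, by the distance in bp of their first base from the canonical start; blue words occur in 1 place of hg19 and orange words in more. HSD17B7 has 499 repeated words of 1150, including most of those next to the start, and the other 5 genes have none.

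A strong site lay beyond the 3′ end of HSD17B7. All 6 libraries had a peak there, with vehicle summits 9677 bp past the gene for SREBP2, 9680 bp for RORγ and 9703 bp for H3K27ac. SREBP2 held 57 fragments with vehicle and 45 with XY018, a ratio of 0.668 (0.442 to 1.01), and more than at any promoter of the group. RORγ held 42 and 42, with a ratio of 1.11 (0.704 to 1.74), and H3K27ac 62 and 73, with a ratio of 1.29 (0.907 to 1.84). The SREBP2 peak had more fragments than 97.5% of the peaks of its vehicle list, and the RORγ peak more than 96.4%. The nearest annotated start was that of a pseudogene, 2295 bp away, and the nearest start of a protein-coding gene was an alternative start of HSD17B7 itself, 19582 bp away. The 81 bases around the SREBP2 vehicle summit, chr1:162792250-162792330 on the plus strand of hg19, are 84% G or C and are shown because this is the strongest SREBP2 site within 10 kb of any of the 6 genes, with GGGCGG in capitals.
HSD17B7 downstream site: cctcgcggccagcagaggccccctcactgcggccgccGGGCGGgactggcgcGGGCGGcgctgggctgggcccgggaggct

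DHCR7 had the most peaks of the 6 genes, with 3 sites shared by all 6 libraries. The first was the promoter. The second lay 12762 bp after the start, in the coding part of the last exon, exon 9, where SREBP2 held 30 fragments with vehicle and 23 with XY018, a ratio of 0.649 (0.36 to 1.16). RORγ held 17 and 17 there, with a ratio of 1.11 (0.531 to 2.3). H3K27ac held 28 and 14, a ratio of 0.548 (0.267 to 1.08) with an interval that included 1. The interval lay below 1.27, the median H3K27ac ratio over the promoters of all genes. No median for peaks outside promoters was computed. At the promoter of the same gene the ratio was 1.33 (1.03 to 1.71). The 2 intervals overlapped at their ends, which does not decide whether the sites differ, and the difference itself was not tested. The 81 coding bases around the SREBP2 vehicle summit, chr11:71146637-71146717 on the minus strand of hg19, are shown because all 3 antibodies met at this exon, and none of the elements searched was found in them.
DHCR7 exon 9: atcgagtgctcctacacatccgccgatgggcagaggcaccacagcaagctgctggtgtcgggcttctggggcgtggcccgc

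The third site of DHCR7 was the promoter that its most upstream transcripts share with NADSYN1, which encodes an enzyme of NAD synthesis. NADSYN1 starts on the opposite strand, 241 bp from the most upstream start of DHCR7 and 4716 bp from the canonical one. SREBP2 held 17 fragments there with vehicle and 19 with XY018, a ratio of 0.946 (0.466 to 1.94). RORγ was weak, with 5 and 4. H3K27ac went from 28 to 48 fragments, a ratio of 1.88 (1.15 to 3.11). This interval lay above 1, as did that of the canonical promoter. Both intervals included 1.27, the median H3K27ac ratio over the promoters of all genes, so that neither departed detectably from the shift of all promoters. At this site the local background was 2.64 fragments with vehicle and 1.07 with XY018.

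**Figure D5:**
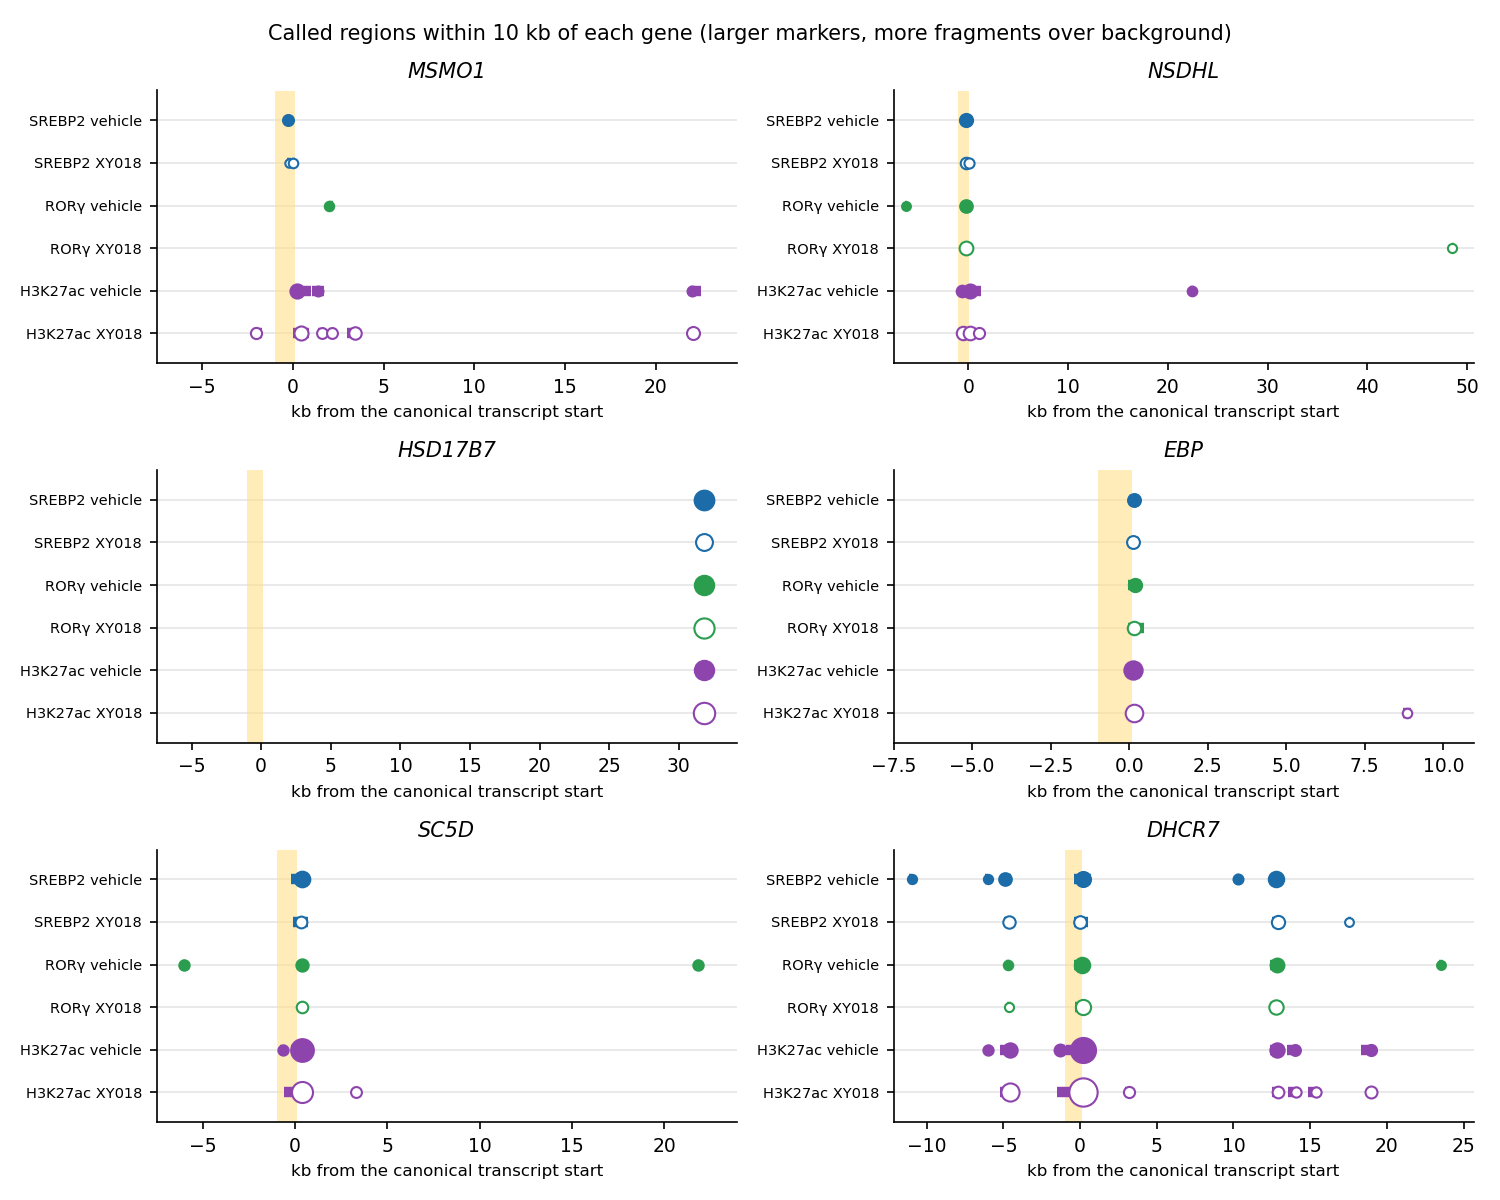
Peaks within 10 kb of each gene, by distance in kb from the canonical start along the strand of the gene, with 1 row for each library; bars are the peaks, markers their summits (filled for vehicle, open for XY018, larger with more fragments over background) and yellow the promoter window of the canonical start. HSD17B7 has peaks at a single downstream site in all 6 libraries, and DHCR7 has 3 sites shared by all 6.

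Within 10 kb of the 6 genes there were 11 SREBP2 peaks with vehicle and 11 with XY018, or 1.83 per gene in both, where the means over all 20090 genes were 6.03 and 3.79. RORγ peaks numbered 12 and 8, or 2 and 1.33 per gene, against 7.1 and 5.77. H3K27ac peaks numbered 17 and 21, or 2.83 and 3.5 per gene, against 5.68 and 6.22. The distribution over all genes is skewed, with medians of 4 and 2 peaks for SREBP2, 4 and 3 for RORγ and 3 and 3 for H3K27ac. The mean of the late sterol genes was thus below the mean over all genes in every library. It cannot be read against these medians, since single genes raise a mean of 6. For H3K27ac with XY018, DHCR7 had 7 peaks and MSMO1 had 6. Gene length was not adjusted for. Of the 11 SREBP2 vehicle peaks 8 overlapped an XY018 peak, against 39.8% of the whole list. For RORγ this held for 7 of 12 against 36.4%, and for H3K27ac for 15 of 17 against 69.3%. The whole-list shares were not matched for peak strength or promoter position, so that better retention at these genes cannot be read from them. Of the 11 SREBP2 vehicle peaks, 6 were promoter peaks, and DHCR7 alone held 6 of the 11. The 3 SREBP2 peaks without a counterpart were all at DHCR7 and held 6 to 8 fragments, and the 5 RORγ peaks without one held 4 to 7.

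MSMO1 had 3 H3K27ac peaks with vehicle and 6 with XY018. The 3 without a vehicle counterpart lay at -2056 bp from the start and 2143 bp and 3406 bp after it in the first intron, with 12, 11 and 17 fragments. The XY018 list was the longer one, with 105371 H3K27ac peaks against 95099. The share of all its peaks without a vehicle counterpart was not computed, so that these 3 cannot be read as gains particular to MSMO1. A further peak, 22017 bp after the start and past the gene, held 9 fragments with vehicle and 19 with XY018, a ratio of 2.31 (0.997 to 5.81). The promoter peak of the same gene, with 27 and 24 fragments, was 1047 bp wide with vehicle and 900 bp wide with XY018. In NSDHL a second H3K27ac peak upstream of the start, on the CETN2 side, held 15 and 21 fragments, a ratio of 1.53 (0.754 to 3.2), while the peak in the first intron held 26 and 22.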

How the data were processed

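ChIP-seq of HCC70 cells was read from 6 deposited peak lists, 1 for each antibody and treatment by the labels. According to the methods of the study, 50-base single-end reads were placed on hg19, unique deduplicated tags were kept, and peaks were called with MACS. The aligner is BWA in the methods and Bowtie2 in the submitters' processing notes, which also name MACS2 2.1.0. The fold enrichment, a ratio of summit pileup plus 1 to local background plus 1, and the −log10 p-value and −log10 q-value are the authors' values. The deposited H3K27ac lists hold a selection, since their numbering runs up to 245055, by a rule not given in the sources used here. Peaks per list on chromosomes 1 to 22 and X ranged from 69700 to 167264. The lists are lenient, since the lowest −log10 q of a list ran from 0.216 to 0.674. Those of SREBP2 and RORγ hold more peaks than the high-confidence sites counted in the paper.

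Fold and −log10 p were solved for whole fragments and local background, with the Poisson tail that MACS uses, and all peaks (100%) came out whole within 5% of a step. The most common local background scaled each library, and tags ranged from 3.65 to 6.16 per kb. For each gene the pair of overlapping promoter peaks with the most fragments was compared, with exact Poisson intervals for fragments and exact conditional binomial intervals for ratios. GENCODE 44 lifted to GRCh37 gave transcript starts. Scripts (Python 3.11.15, scipy 1.17.1, pysam 0.24.0) were tested on simulated data. By rule, the 6 genes are named in each library, the 14 earlier pathway genes by counts, and GAPDH and ACTB as promoters outside. Further genes of these lists are not reported here. Members and lists were chosen with earlier results of these data known. PECAM1 was not used here. Other promoter windows, q thresholds, scalings, pairings, flanks and motif windows were tried.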

Additional observations from a re-analysis of the deposited data

How the results depend on the processing

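No paired analysis was possible because each group held 1 library. Of 172 values under an alternative, 153 stayed within 1.5 times of a count or inside the interval of a ratio, and 19 moved. The 64 values of single genes all stayed inside the interval of their ratio. Many of them could not move. Scaling by tags per kb left each RORγ and H3K27ac ratio as it was, since fragment length is equal within those pairs. Most other choices of peaks gave the same pair. The intervals are also wide, so that this count says little about stability. Where the interval includes 1, some values crossed it. The SREBP2 ratio of EBP was 0.987 and became 1.09 by tags per kb, 1.17 unscaled and 1.29 in folds. The RORγ ratio of EBP became 0.933 unscaled and 0.979 in folds, and that of DHCR7 1.07 in folds. The RORγ sum became 0.961 unscaled and 0.989 without NSDHL, and the H3K27ac sum 0.953 unscaled. At q of at most 1e-05 the SREBP2 XY018 count fell to 3 genes (EBP, SC5D and DHCR7). With the summit inside the window the H3K27ac XY018 count was 3 (NSDHL, EBP and DHCR7). The summed H3K27ac ratio was 0.877 without DHCR7, an alternative added after seeing the data. Peaks within 25 kb numbered 20 for SREBP2 with vehicle, 24 for RORγ with vehicle and 33 for H3K27ac with XY018. At q of at most 1e-05, peaks within 10 kb numbered 7 and 6 for SREBP2 and 6 for RORγ with vehicle, which had 7 at q of at most 0.01.

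With 1 mismatch the SRE was found in 4 promoters and at 1 summit. From 500 bp before to 500 bp after the start the RORE core was found in 1 promoter (NSDHL). In the 250 bases before the start, a window added after seeing the data, the E-box was found in 1 and the half-site in 0. CCAAT was found within 50 bp of 1 summit and within 250 bp of 4, GGGCGG within 50 bp of 3 and the half-site within 250 bp of 1. Leaving out HSD17B7 from the ratios gave no other value, since it had no pair. Counting error leaves wide intervals for single genes, as in the SREBP2 ratio of DHCR7 (0.323 to 1.11), and the spread between replicates is unknown.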
